A study of Mus musculus with 6 samples.

Results

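The mitochondrial carrier family was examined in sorted glomerular endothelial cells of eNOS-null mice given streptozotocin (STZ) and of untreated eNOS-null mice, with 3 libraries in each group. Its members were the genes with an Slc25a number or the name Ucp1, Ucp2 or Ucp3, and 39 of the 12911 listed genes met this rule, namely 38 Slc25a genes and Ucp2. Both groups lack endothelial nitric oxide synthase, so neither stands for a wild-type endothelium. STZ destroys pancreatic beta cells and is used to model diabetes. Each library held RNA pooled from 4 mice, so errors and p-values reflect variation among pools rather than among individual mice. Cells were sorted for EYFP from digested glomeruli that had been isolated with magnetic beads. The sources used here do not give the promoter behind EYFP, the strain background, the age or the STZ schedule. The family was chosen because Ucp2 was among the strongest differences between these groups, so the Ucp2 values are given as a description with no test.

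Mitochondrial carriers are proteins of the inner mitochondrial membrane that swap or co-transport metabolites, nucleotides, cofactors and inorganic ions between the cytosol and the matrix. They share a fold built from repeats of a helix pair, and a member is known mainly by the substrate it moves. Uncoupling proteins belong to the family. Ucp1 carries protons back into the matrix in brown fat to make heat, whereas Ucp2 is found in many tissues, moves small dicarboxylates in exchange for phosphate in reconstituted membranes, and has been linked to the control of mitochondrial superoxide. Capillary endothelium makes much of its ATP by glycolysis, and its mitochondria also serve biosynthesis, redox balance and signalling.

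Total counts were between 10734376 and 12662371.5 in STZ libraries and between 4387339 and 8751732.5 in control libraries, so every STZ library was the deeper. Summed levels of the 10 glomerular endothelial markers were 24840 to 26890 CPM (counts scaled to a common library size, with TMM factors) in STZ libraries and 14320 to 16670 CPM in control libraries, with all 10 listed and 7 not overlapping between groups. Much of the higher sum was Plat (8303 ± 603 CPM in STZ and 2630.5 ± 544 CPM in control, SD, n = 3 each) and Ehd3 (5230.0 ± 241 CPM in STZ and 3001 ± 335 CPM in control). Kdr, Cdh5 and Emcn were also higher in every STZ library, at log2 fold changes of 0.61, 0.47 and 0.42. In edgeR, Plat, Ehd3, Kdr, Cdh5 and Emcn were called higher (adjusted p under 0.05), against 5.47% of all tested genes. Pecam1 and Flt1 were higher in every STZ library but were not called. Egfl7, Tek and Tie1 overlapped, Tek and Tie1 at log2 fold changes of 0.02 and -0.01. Podocyte markers summed to 5585 to 6799 CPM in STZ and 5021 to 7827 CPM in control libraries. The 8 mesangial and mural markers summed to 378 to 682 CPM in STZ and 929.6 to 1064 CPM in control libraries, 7 of them lower in every STZ library. Leukocyte markers, 7 of 10 listed, summed to 145 to 176 CPM in STZ libraries and 164 to 217 CPM in control libraries. Their directions differed. Lyz2 was higher in every STZ library, whereas Ptprc and Cd79a were lower in every one, Cd79a at a log2 fold change of -1.71 (adjusted p = 0.00565 in edgeR). Erythroid markers, 6 of 8 listed, summed to 136 to 223 CPM in STZ libraries and 24.4 to 62.6 CPM in control libraries. All 6 were higher in every STZ library. Of all tested genes, 15.4% were higher in every STZ library than in any control library, and 13.7% were lower in every one. Proximal tubule markers (4 of 10 listed) summed to 30.01 to 33.99 CPM in STZ and 30.68 to 34.24 CPM in control libraries, and of 5 adipocyte markers only Cidea was listed, at sums up to 3.19 CPM. Xist stood at 0.687 ± 0.261 CPM in STZ and 709 ± 32.4 CPM in control libraries (SD, n = 3 each). Y-linked genes were higher in STZ, with Ddx3y at 135 ± 4.09 CPM in STZ and 3.07 ± 0.375 CPM in control libraries and Eif2s3y, Kdm5d and Uty also higher in every STZ library. The labels give no sex, and STZ treatment cannot be told apart from the sex of the pooled mice for any gene below. In bulk RNA, fewer cells of a type and less RNA per cell cannot be told apart either.

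Ucp2 (NM_011671) lies on mm10 chromosome 7, from 100493345 to 100502173 on the plus strand, and the promoter window of its RefSeq model on GRCm38.p6 is printed here because it belongs to the member that differed. The windows of Slc25a3, the phosphate carrier, and Slc25a5, an ADP/ATP carrier, are shown beside it because these were highly expressed carriers that did not pass the test. Each runs 5′ to 3′ from 250 bases before to 50 bases after the start used for the window. They lie at chr7:100493108-100493407 (plus strand) for Ucp2, chr10:91123918-91124217 (minus strand) for Slc25a3 and chrX:36795347-36795646 (plus strand) for Slc25a5. These starts differ from those of the listed gene models, and the Slc25a5 window ends before the listed start at 36795652. Capitals mark the GC box GGGCGG, on either strand.
Ucp2: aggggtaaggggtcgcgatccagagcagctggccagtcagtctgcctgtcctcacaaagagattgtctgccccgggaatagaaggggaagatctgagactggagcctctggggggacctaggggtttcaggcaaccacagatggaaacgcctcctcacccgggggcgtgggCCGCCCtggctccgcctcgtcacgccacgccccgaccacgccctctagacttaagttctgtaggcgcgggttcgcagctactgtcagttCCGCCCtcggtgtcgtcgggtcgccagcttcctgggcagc
Slc25a3: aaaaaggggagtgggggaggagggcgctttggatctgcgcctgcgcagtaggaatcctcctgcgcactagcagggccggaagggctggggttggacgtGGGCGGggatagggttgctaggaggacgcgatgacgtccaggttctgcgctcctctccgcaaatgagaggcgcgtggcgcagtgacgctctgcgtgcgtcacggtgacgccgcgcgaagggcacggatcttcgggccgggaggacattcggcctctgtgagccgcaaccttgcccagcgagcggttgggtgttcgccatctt
Slc25a5: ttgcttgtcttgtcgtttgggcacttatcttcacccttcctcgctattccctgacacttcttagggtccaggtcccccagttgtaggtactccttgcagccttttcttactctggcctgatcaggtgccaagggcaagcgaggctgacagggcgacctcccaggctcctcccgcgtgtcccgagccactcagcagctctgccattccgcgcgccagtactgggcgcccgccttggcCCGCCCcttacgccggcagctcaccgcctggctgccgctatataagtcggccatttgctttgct

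The Ucp2 window held 2 GC boxes, 21 CpG dinucleotides and 64.3% G and C, against 1 box, 31 CpG and 65.7% for Slc25a3 and 1 box, 18 CpG and 61.0% for Slc25a5. Of 32851 RefSeq windows 35.66% held a GC box, and it stood in 35 of the 39 windows found for 30 members (89.7%). Those 39 windows had a median of 60.7% G and C, against 52.7% over all windows. None of the 3 printed windows held CCAAT, which was in 20 of the 39 family windows (51.3%) and 37.41% of all windows. TATAAA was in 0 of the 39 and in 13.62% of all. The palindrome CACGTG, an E box, was in 7 of the 39 family windows (17.9%), not in that of Ucp2, and in 7.15% of all windows. TGACGTCA, the cAMP response element, was in 2 of the 39 windows (those of Slc25a25 and Slc25a36) and in 1.79% of all. The full palindromic glucocorticoid response element and the direct-repeat PPAR element were in 0 of the 39, and in 0.01% and 0.04% of all windows. Both strands were searched, matches could overlap, and these are letters in a window of 300 bases and no more.

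Ucp2 was higher in STZ libraries. Its deposited counts were 10430, 11968 and 11808 in STZ pools 1, 2 and 3, against 2999, 2077 and 1325 in control pools 1, 2 and 3. Scaled to library size this was 1008, 1035 and 956 CPM in STZ pools and 329.6, 334 and 293 CPM in control pools. The lowest STZ pool was thus far above the highest control pool, while pools of the same group lay close together. The means were 999.7 ± 40.3 CPM in STZ and 319 ± 22.5 CPM in control (SD, n = 3 each), a log2 fold change of 1.65 ± 0.10 (SE), or 3.14-fold. Of 12786 tested genes, this was the 8th smallest p-value and the 24th largest positive log2 fold change, values that were used to choose the family. Erythroid and endothelial marker sums were also higher and mesangial sums lower in the STZ libraries. The endothelial sum rose mostly through Plat and Ehd3, and 7 of the 10 endothelial markers were higher in every STZ library. What part these marker differences have in the Ucp2 difference was not tested.

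**Figure D1:**
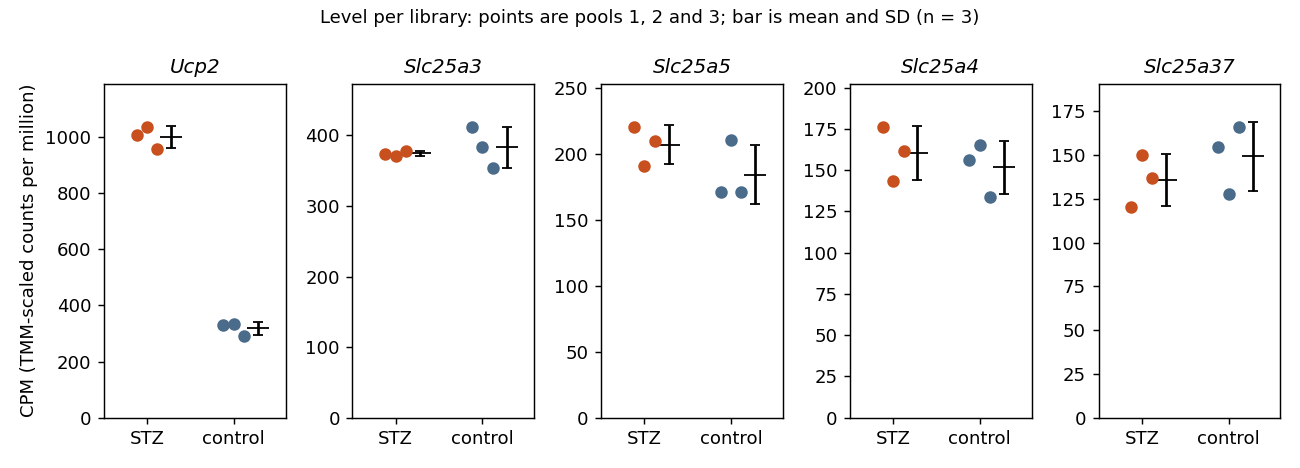
Level (CPM, vertical axes from 0) of 5 carrier genes in each library, STZ pools left and control pools right, with the mean and SD of each group (n = 3) as a bar. Ucp2 stands at 956 to 1035 CPM in STZ pools and 293 to 334 CPM in control pools, whereas the pools overlap for Slc25a3, Slc25a5, Slc25a4 and Slc25a37.

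The other 38 members entered by name, and all were tested. The quasi-likelihood test of edgeR (two-sided, Benjamini-Hochberg over all 12786 tested genes, threshold 0.05) called 0 of the 38, against 9.78% of all tested genes, 5.47% higher and 4.32% lower in STZ. An unadjusted p under 0.05 was found in 2 of the 38, Slc25a15 and Slc25a30, against 24.2% of all tested genes. DESeq2 and limma-voom called 0 of the 38. The 38 had a median log2 fold change of 0.03, against -0.01 over all tested genes, and ran from -0.49 to 0.52. In 31 of the 38 the change was within 0.2 of 0 on the log2 scale. The median absolute log2 fold change was 0.13 in the 38, against 0.17 over all tested genes. The 95% interval lay within 1.5-fold either way in 33 of the 38 and within 2-fold in 37, and the highest upper end was 1.08 on the log2 scale (Slc25a53). Pools did not overlap in 4 of the 38 that were higher in STZ (Slc25a30, Slc25a36, Slc25a39 and Slc25a44) and in 3 that were lower (Slc25a28, Slc25a35 and Slc25a46), against 15.4% and 13.7% of all tested genes (29.1% in either direction).

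**Figure D2:**
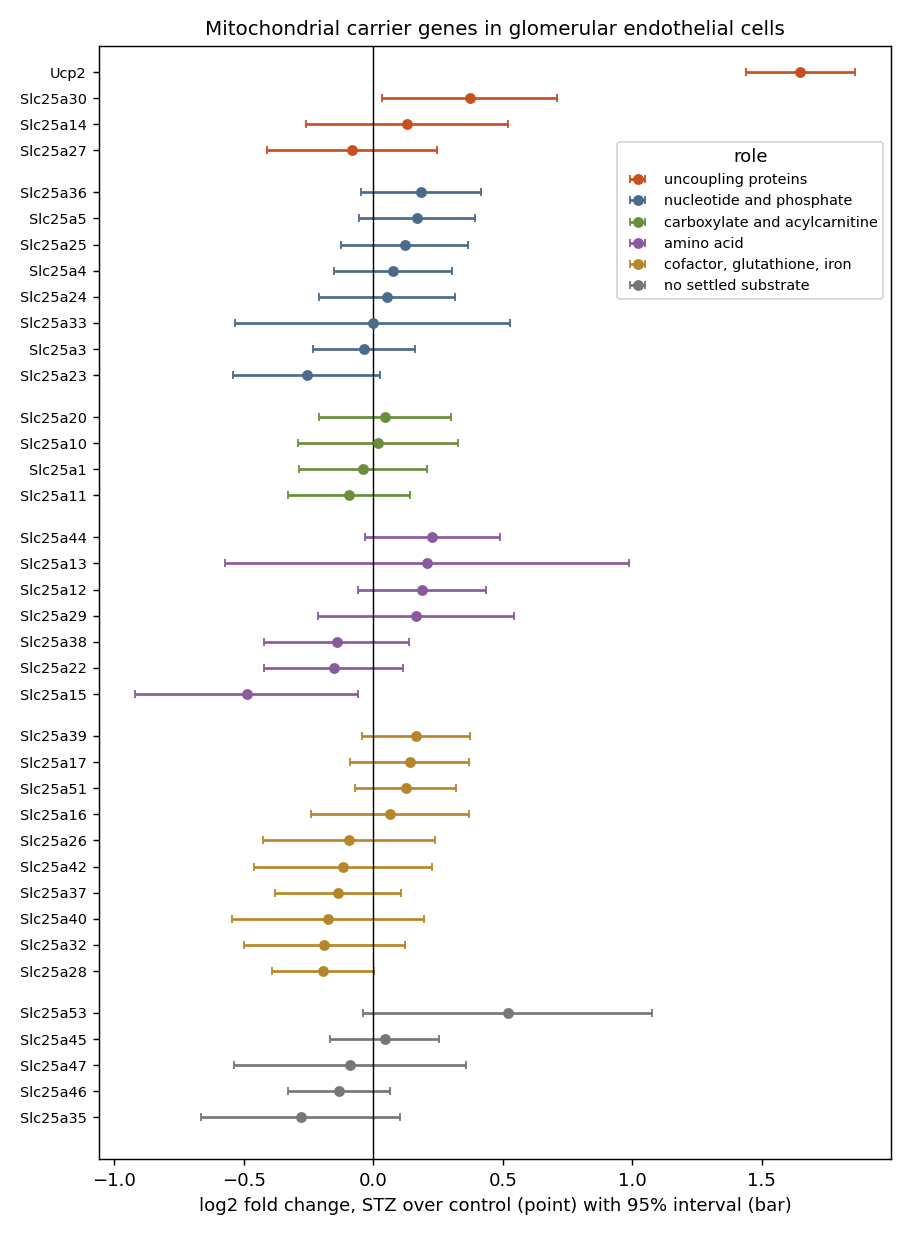
Log2 fold change of STZ over control (horizontal axis) for 38 of the 39 carrier genes, grouped by role, with 95% intervals as bars. Ucp2 stands at 1.65, and the others run from -0.49 (Slc25a15) to 0.52 (Slc25a53).

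Among uncoupling-type carriers, 4 of 6 names were listed, and Ucp1 and Ucp3 were not among the listed genes and are not analysed here. Slc25a30, the kidney mitochondrial carrier, had 26.4, 25.3 and 23.1 CPM in STZ pools and 15.2, 20.7 and 22.8 CPM in control pools. All STZ pools were above all control pools, though by little between STZ pool 3 and control pool 3. Its log2 fold change was 0.37 ± 0.16 (SE), with an adjusted p of 0.163 in edgeR and an unadjusted p of 0.0329. Slc25a14, the brain mitochondrial carrier encoded on the X chromosome (0.13 ± 0.18), and Slc25a27, a brain-type uncoupling carrier (-0.08 ± 0.15), overlapped between groups.

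Carriers of adenine nucleotides and phosphate feed ATP synthesis, and 8 of 10 names of this group, which also holds the pyrimidine nucleotide carriers, were listed. None passed the edgeR test, and 0 had an unadjusted p under 0.05. DESeq2 and limma-voom called 0 of them as well. Slc25a3, which brings phosphate into the matrix, had 374, 371 and 378 CPM in STZ pools and 412, 384 and 354 CPM in control pools. The 3 STZ values lay inside the control range, and the log2 fold change was -0.03, with a 95% interval of -0.23 to 0.16. Slc25a5, an ADP/ATP translocase typical of growing cells, had 220.2, 191 and 210.1 CPM in STZ pools and 171, 210.2 and 171 CPM in control pools. Its log2 fold change was 0.17 (interval -0.06 to 0.39), with control pool 2 as high as STZ pool 3. Slc25a4, the ADP/ATP translocase known for heart and muscle, had 176, 143 and 162 CPM in STZ pools and 156, 165 and 134 CPM in control pools, and its interval of -0.15 to 0.30 took in 0. The calcium-regulated ATP-Mg/phosphate carriers Slc25a23, Slc25a24 and Slc25a25 had log2 fold changes of -0.26, 0.05 and 0.12, and the pyrimidine nucleotide carriers Slc25a33 and Slc25a36 had -0.00 and 0.18.

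The carriers of citrate, dicarboxylates, oxoglutarate and acylcarnitine were the most alike between groups by value, with log2 fold changes of -0.09 to 0.05 in all 4 listed members. Slc25a1, which exports citrate for fatty acid and sterol synthesis, had 66.2, 60.2 and 53.0 CPM in STZ pools and 64.3, 66.2 and 52.8 CPM in control pools. The pools overlapped almost fully. Slc25a20, which brings acylcarnitines into the matrix for beta oxidation, averaged 28.8 ± 0.551 CPM in STZ and 27.8 ± 2.25 CPM in control (SD, n = 3 each). Its log2 fold change was 0.05, with a 95% interval of -0.21 to 0.30. The oxoglutarate carrier Slc25a11 of the malate-aspartate shuttle stood at -0.09 ± 0.11 and the dicarboxylate carrier Slc25a10 at 0.02 ± 0.14 (SE).

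Of 9 amino acid carriers 7 were listed. Slc25a15, an ornithine carrier of the urea cycle, had the lowest log2 fold change of the family, -0.49 ± 0.20 (SE; adjusted p = 0.151 and unadjusted p = 0.0289 in edgeR). It had 8.02, 9.60 and 8.09 CPM in STZ pools and 9.34, 14.0 and 13.3 CPM in control pools. Control pool 1 lay within the STZ range, so the groups overlapped. The aspartate/glutamate carrier Slc25a12 averaged 50.3 ± 4.02 CPM in STZ and 44.3 ± 5.01 CPM in control (SD, n = 3 each), a log2 fold change of 0.19. Its close relative Slc25a13, the liver-type form also called citrin, was the lowest of the family per length, at 2.06 ± 0.215 CPM in STZ and 1.83 ± 0.799 CPM in control, and its interval of -0.57 to 0.99 was wide. The glutamate carrier Slc25a22 (-0.15), the basic amino acid carrier Slc25a29 (0.17), the glycine carrier Slc25a38 of haem synthesis (-0.14) and the branched-chain amino acid carrier Slc25a44 (0.23) had adjusted p-values of 0.269 to 0.619.

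The cofactor, glutathione and iron carriers, 11 of 12 listed, ran from -0.19 to 0.17. Both mitoferrins, the iron importers, had negative values. Slc25a28 had 58.6, 67.5 and 63.5 CPM in STZ pools and 73.7, 71.2 and 71.8 CPM in control pools, so every STZ pool was lower, at a log2 fold change of -0.19 ± 0.09 (SE; adjusted p = 0.2197 in edgeR). Slc25a37, the mitoferrin of red cell precursors, had 120.5, 149.9 and 137 CPM in STZ pools and 154, 128 and 166 CPM in control pools, and the groups overlapped. Slc25a37 stood at -0.14 ± 0.11. The red cell markers were higher in all STZ libraries, and what red cells add to the counts of this gene was not tested. Slc25a39, a glutathione importer, had 64.97, 63.3 and 59.4 CPM in STZ pools and 57.3, 58.6 and 50.8 CPM in control pools. Here all STZ pools were higher, at 0.17 ± 0.10 (adjusted p = 0.3178), whereas its relative Slc25a40 stood at -0.17 ± 0.17. The peroxisomal cofactor carrier Slc25a17 had 51.3, 49.5 and 60.1 CPM in STZ pools and 49.8, 46.1 and 50.1 CPM in control pools. Slc25a51, which imports NAD+ into mitochondria, averaged 86.9 ± 3.14 CPM in STZ and 80.0 ± 5.99 CPM in control, and the carriers of S-adenosylmethionine (Slc25a26, -0.09) and folate (Slc25a32, -0.19) also did not pass.

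Among 5 listed carriers grouped as having no settled substrate, Slc25a45 had 63.9, 59.8 and 64.3 CPM in STZ pools and 66.3, 59.9 and 55.5 CPM in control pools. Slc25a53, encoded on the X chromosome, had the highest log2 fold change after Ucp2, 0.52 ± 0.26 (SE; adjusted p = 0.243), at only 17 to 77 counts per library. Slc25a46, a protein of the outer membrane linked to mitochondrial fission, stood at -0.13 ± 0.09 with every STZ pool lower. The 3 listed X-linked members (Slc25a5, Slc25a14 and Slc25a53) had positive values of 0.13 to 0.52, with overlapping pools and none past the test. Their median was 0.17, against 0.01 in the 36 autosomal members, Ucp2 among them. A link to the Xist difference between the groups was not tested.

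Levels of different genes were compared as CPM per kilobase of listed transcript. In STZ pools Slc25a3 (245 to 250.3 CPM per kb) and Ucp2 (231 to 250.4 CPM per kb) were the highest carriers, with overlapping pools. Next came Slc25a5 (154 to 178) and Slc25a4 (129 to 159), which also overlapped each other, and Slc25a28 after them stood at 38.2 to 44.0 CPM per kb. In control pools Slc25a3 led at 234 to 272 CPM per kb, Slc25a5 (138 to 169.8) and Slc25a4 (121 to 149) overlapped, and Ucp2 had position 4 at 70.8 to 80.7. By mean level Ucp2 thus had position 2 of 39 in STZ and 4 of 39 in control. With the length of the longest GENCODE coding transcript in place of the listed one (a check added after the data were seen) Ucp2 had position 1 in STZ, at 251 against 232 CPM per kb for Slc25a3, and position 3 in control. By that length (1925 bases in place of 1106) Slc25a4 averaged 83.3 CPM per kb in STZ and 78.8 in control. Slc25a5 averaged 167 in STZ and 149 in control, so the nearness of these 2 genes rests on the listed length. Over both groups Ucp2 ranked 402 of 12911 listed genes per length, and Slc25a3 ranked 223.

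**Figure D3:**
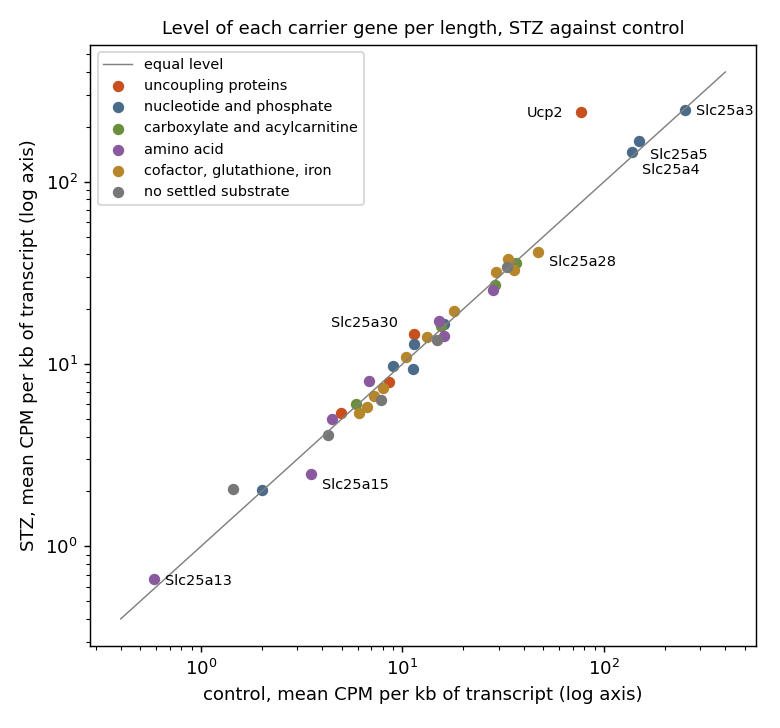
Mean level per kilobase of listed transcript in STZ (vertical, log axis) and control pools (horizontal, log axis) for the 39 carrier genes, coloured by role, with a line of equal level. Ucp2, at 242 in STZ and 77.1 in control, stands off the line, and Slc25a13 is lowest, at 0.660 in STZ and 0.586 in control.

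All 39 carriers together made up 2993 ± 32.4 CPM in STZ and 2298 ± 56.6 CPM in control (SD, n = 3 each). Without Ucp2 the sums were 1993 ± 8.35 CPM in STZ and 1979 ± 34.7 CPM in control, so the rest of the family summed to nearly the same in both. Ucp2 alone gave 33.4% ± 0.993 of the carrier counts in STZ and 13.9% ± 0.655 in control. Per kilobase its share was 18.4% ± 0.809 in STZ and 6.82% ± 0.231 in control.

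Close relatives could share reads. Coding sequences (GENCODE M21) of the 39 members were therefore aligned with each other and with those of Ucp1 and Ucp3. Ucp2 was 73.8% identical to Ucp3, over coding lengths of 930 and 927 bases, and 60.7% to Ucp1, and the longest exact run it shared with Ucp3 was 24 bases. Within the listed members it was closest to Slc25a11, at 51.7%, with no shared run above 17 bases in any pair with Ucp2. The closest listed pairs were Slc25a4 with Slc25a5 (77.5%, longest run 20 bases), Slc25a12 with Slc25a13 (70.6%) and the mitoferrins Slc25a28 with Slc25a37 (65.9%). Members of these pairs had log2 fold changes of 0.08 and 0.17, 0.19 and 0.21, and -0.19 and -0.14, none past the test. In 16 members another annotated gene overlapped the span. For Ucp2 this was Dnajb13 on the opposite strand, over 458 bases, and since the strand setting of the counting is not given, reads of the 2 genes there cannot be told apart. Listed counts came from a single transcript in 31 members, Ucp2 among them, and from several in 8 (Slc25a13 and Slc25a14, for example).

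None of the 6 nearest listed genes on chromosome 7 passed the test, against 9.78% of all tested genes called. Dnajb13, which overlaps Ucp2, is not among the listed genes and could not be read. Distances were taken from the lowest coordinate of each gene, which is the 3′ end of the minus-strand genes Ppme1 and Mrpl48. They ran from -265738 (Pgm2l1) to 114241 (Rab6a) bases from the Ucp2 start, with Coa4 at 43755. C2cd3 came closest to Ucp2, by its end at 100470159, before the Ucp2 start at 100493345. The 3 nearest listed genes upstream were C2cd3, a centriole protein gene (0.33 ± 0.11, adjusted p = 0.0666 in edgeR), Ppme1, a phosphatase methylesterase gene (0.06 ± 0.12), and Pgm2l1 (0.12 ± 0.13). C2cd3 was the nearest to the threshold, at 49.8 ± 2.99 CPM in STZ and 39.4 ± 2.87 CPM in control (SD, n = 3 each). Downstream, Coa4, an assembly factor of cytochrome oxidase (0.30 ± 0.24), Mrpl48, a mitochondrial ribosome protein gene (0.14 ± 0.13), and Rab6a, a Golgi GTPase gene (0.03 ± 0.10), did not pass either. Each value is a log2 fold change ± SE, and the upper 95% limits of the 6 neighbours lay between 0.24 and 0.82. C2cd3 was higher in each STZ pool than in each control pool.

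**Figure D4:**
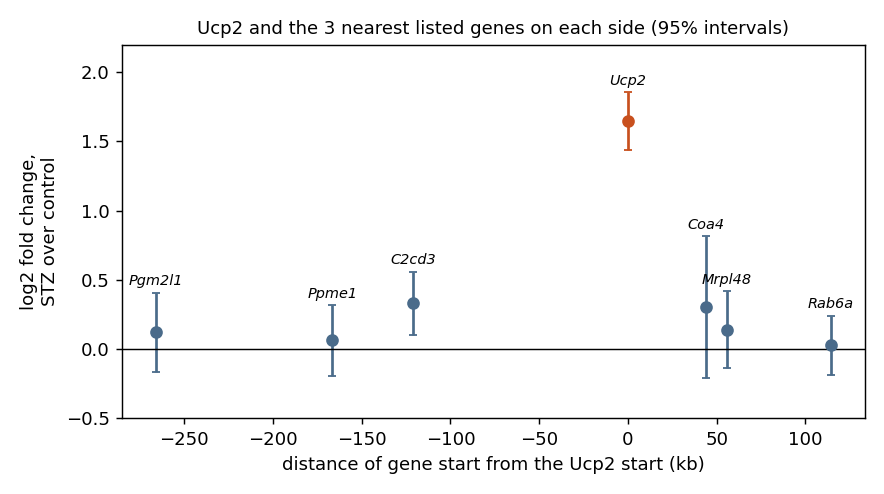
Log2 fold change of STZ over control (vertical axis, 95% interval as bar) of Ucp2 and the 3 nearest listed genes on each side. The horizontal axis is the distance in kilobases of the gene's lowest coordinate, labelled as its start, from the Ucp2 start. Ucp2 stands at 1.65, and the 6 neighbours stand between 0.03 (Rab6a) and 0.33 (C2cd3).

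Genes of related functions were read from 6 lists, whose calls are to be set against the 9.78% of all tested genes. Of 24 tested genes of mitochondrial transport without an Slc25a or Ucp name, 1 was called higher, 0 lower and 23 did not pass (median log2 fold change -0.02). The called gene was Mtch1, an outer membrane insertase related to the carriers, which the rule by name left out of the 39 members. Mtch1 had 464, 464 and 432 CPM in STZ pools and 338, 361 and 317 CPM in control pools. All STZ pools were higher, and its log2 fold change was 0.42 ± 0.09 (SE; adjusted p = 0.0108), a call lost without STZ pool 1 (adjusted p = 0.0599) or control pool 1 (0.0532). The pyruvate carrier subunits Mpc1 (-0.15 ± 0.12) and Mpc2 (-0.30 ± 0.17), the outer membrane channel Vdac1 (-0.06 ± 0.12) and the calcium uniporter Mcu (-0.04 ± 0.12), chosen after their values were seen, did not pass. Of 15 import genes that bring carriers into the inner membrane, 0 were called by edgeR, DESeq2 or limma-voom, and 1 had an unadjusted p under 0.05 in edgeR (median 0.04). For the transport list that number was 3 of 24, against 24.2% of all tested genes.

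Fatty acid oxidation and the carnitine shuttle had 0 of 21 tested genes called in edgeR, DESeq2 or limma-voom, with 1 at an unadjusted p under 0.05 (Acadl, an acyl-CoA dehydrogenase, 0.26 ± 0.09) and a median of 0.08. Cpt1a, the gatekeeper of carnitine-dependent entry, averaged 156 ± 4.52 CPM in STZ and 139.5 ± 14.5 CPM in control (SD, n = 3 each), and Cpt2 stood at 0.15 ± 0.14. Both were chosen after their values were seen. In the shuttle and citric acid cycle list 1 of 28 was called higher, 0 lower and 27 did not pass (median 0.02). It was Got1, the cytosolic aspartate aminotransferase of the malate-aspartate shuttle, at 57.3, 59.7 and 66.0 CPM in STZ pools and 48.0, 46.3 and 35.6 CPM in control pools. Its log2 fold change was 0.48 ± 0.12 (SE; adjusted p = 0.0211), a call lost without STZ pool 3 (adjusted p = 0.0957). Of 11 genes of pyruvate and glutamine entry 0 were called in edgeR, DESeq2 or limma-voom, and 4 had an unadjusted p under 0.05 in edgeR (median -0.03), as did 3 of the 28 shuttle and cycle genes, against 24.2% of all tested genes.

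The list of PPAR and PGC-1 regulators and PPAR target genes, which can act on Ucp2 in other tissues, had 2 of 21 called higher, 1 lower and 18 not past the test, with a median of 0.16. An unadjusted p under 0.05 was found in 9 of the 21, against 24.2% of all tested genes. Fabp4, a fatty acid binding protein of capillary endothelium, had 1638, 1531 and 1398 CPM in STZ pools and 725, 795 and 629.8 CPM in control pools. Cd36, a fatty acid receptor of the cell surface, had 55.0, 46.6 and 50.7 CPM in STZ pools and 19.01, 22.3 and 25.8 CPM in control pools. In both, each STZ pool was above each control pool, with log2 fold changes of 1.09 ± 0.11 and 1.20 ± 0.13 (SE; adjusted p = 4.95e-05 and 8.83e-05). Pprc1, a coactivator related to PGC-1, fell by 0.56 ± 0.11 on the log2 scale (adjusted p = 0.00737), to 51.1 ± 1.19 CPM in STZ, against 75.4 ± 12.2 CPM in control (SD, n = 3 each). The receptor gene Pparg (0.45 ± 0.14, adjusted p = 0.0613) and the PPAR targets Pdk4 (0.83 ± 0.25, 0.0548) and Angptl4 (1.07 ± 0.31, 0.0551), chosen after their values were seen, did not pass in edgeR, though DESeq2 called Angptl4. Ppargc1a, the gene of the coactivator PGC-1, averaged 5.82 ± 1.16 CPM in STZ and 5.65 ± 0.694 CPM in control (SD, n = 3 each), and Ppara stood at -0.02 ± 0.21. Pdk4 is also in the pyruvate list, and Acadl and Cpt1a are also in the fatty acid oxidation list.

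**Figure D5:**
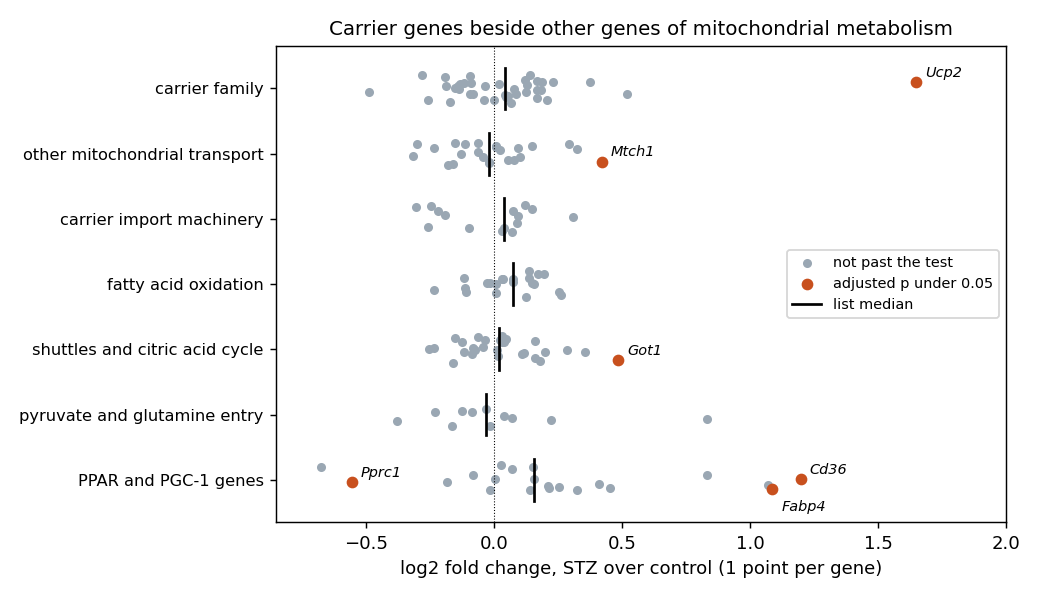
Log2 fold change of STZ over control (horizontal axis) of each gene of the carrier family and of 6 lists of related genes. The PPAR and PGC-1 list is not confined to mitochondrial proteins. A line marks the list median, and genes past an adjusted p of 0.05 in edgeR are named. Ucp2, whose difference chose the family, stands at 1.65. The other named genes are Mtch1 and Got1, and Cd36, Fabp4 and Pprc1 of the PPAR and PGC-1 list.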

How the data were processed

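RNA of sorted glomerular endothelial cells, pooled from 4 mice per library, was measured in 3 STZ and 3 control libraries, grouped by title. The deposited files hold 1 value per gene, treated as an expected count, with mm10 coordinates to which 1 was added at the start; the submitters' processing notes name mm10 and limma, while the sources used here do not give the aligner, counting tool, strand setting or gene filter. All values were multiples of 0.5, and 34 blank cells were read as 0. Members, gene lists and tests were chosen with earlier results of these data known.

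Counts were rounded, and edgeR 4.0.16 (R 4.3.3) was run on them (filterByExpr, TMM, robust quasi-likelihood F test, two-sided, Benjamini-Hochberg over 12786 genes, threshold 0.05), after a test on simulated data. CPM use TMM-scaled library sizes, SE is the absolute log2 fold change over the square root of F, and 95% intervals use it with the fit's degrees of freedom. Named in full were Ucp2, called members and the 10 members highest in CPM per kb. Slc25a15 and Slc25a30, with an unadjusted p under 0.05 in edgeR, were also given by pool, chosen after their values were seen. Called genes of each list and the 3 nearest listed genes on each side of Ucp2 were added. Alternatives used DESeq2 1.42.0 and limma 3.58.1, other normalizations and filters, thinning, a replicate block and each library left out. Promoter windows are from RefSeq (GRCm38.p6). A comparison of carrier proteins was planned, but protein sequences were not used here, and coding sequences took their place. The results of 1 member are not given here by name, though it is in all counts.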

Additional observations from a re-analysis of the deposited data

How the results depend on the processing

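Among the 38 members other than Ucp2, 0 were called in 15 other fits or at both other thresholds. The log2 fold change of Ucp2, the value that chose the family, lay between 1.597 with control pool 3 left out and 1.684 with control pool 2 left out. For the other 38 the smallest adjusted p ran from 0.0754 (Slc25a30, without control pool 3) to 0.367, and their median log2 fold change from -0.01 to 0.05. Of 135 values of the 9 other members named in full, 5 changed sign, all near 0 (Slc25a3, Slc25a1 and Slc25a45 with a library left out), and 0 passed. The count over all genes, 1251 (699 higher, 552 lower), ran from 662 (without STZ pool 1) to 1291 with each library left out, higher genes from 426 to 695 and lower genes from 236 to 596. Leaving out control pool 1 gave 720 genes, and leaving out STZ pool 3 gave 355 lower genes. Lower genes numbered 866 at an adjusted p of 0.10, and with a log2 fold change of at least 1 the counts were 190, 98 higher and 92 lower. With a replicate block 1001 genes were called, 0 of them among the other 38 members, and Ucp2 stood at 1.65; same-numbered pools correlated at 0.119, -0.128 and -0.163 in their deviations from the group means, the labels give no pairing, and no pool correlated best with its own number. Low counts limit members such as Slc25a13, Slc25a33 and Slc25a53, whose 95% intervals were wide.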
